A study of Mus musculus with 6 samples.

Results

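The potassium channel genes of the mouse spinal cord were followed in tissue taken 4 h after a contusion. Members were all genes of the count tables whose symbol begins with Kcn, or with Hcn and a digit, and that held at least 10 counts summed over the 6 libraries. Of 103 such symbols, 79 were members, out of 21524 genes with at least 1 count. The other 24 symbols held 0 counts (12 symbols) or 1 to 9 counts (12 symbols). Kcnk7 lay just inside the threshold with 11 counts and Kcne3 just outside with 9.

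Injured animals were wildtype C57BL/6 mice with a unilateral contusion at C5, the fifth cervical level, delivered with the Infinite Horizon device at 50 kdyn (SCI, n = 3 mice). Sham animals were wildtype C57BL/6 mice that had the laminectomy alone, in which the bone over the cord is removed and the cord is not struck (n = 3 mice). Their time of collection and the ages of all mice are not given in the labels. Poly(A)-primed 3′ end libraries of whole tissue were sequenced to between 3407176 and 11543633 counts. Members held 0.180 to 0.226% of counts in SCI libraries and 0.149 to 0.275% in sham libraries.

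Sham 2 and sham 3 stood at opposite ends of the 6 libraries before any comparison. Transcripts of 20 hepatocyte markers, albumin among them, held 8.31 to 8.69% of counts in SCI libraries and 6.62, 8.74 and 12.2% in sham libraries 3, 1 and 2. The summed level of 15 neuron markers was 6939 to 7136 CPM in SCI cords and 6050.1 to 8787 CPM in sham cords, lowest in sham 2 and highest in sham 3. The defining transcripts of cord neurons were thus present in every library. Sham 2 had the most counts of all libraries and sham 3 the fewest. Levels below are CPM, which are TMM-scaled counts relative to library size. After a mean, ± is the SD over 3 mice, and after a log2 fold change it is the SE. A 3′ end library gives about 1 read per transcript, so levels of different genes were compared without a length correction. In bulk tissue, fewer cells of a type and less RNA per cell cannot be told apart.

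Potassium channels let potassium leave the cell and so bring the membrane back to rest. Voltage-gated channels open on depolarization and end the action potential, inward rectifiers hold the resting potential and in glia take up potassium released by firing neurons, tandem-pore (K2P) channels carry a leak, and calcium-activated channels follow calcium entry to set the afterhyperpolarization. HCN channels open on hyperpolarization and pass both sodium and potassium. Auxiliary subunits form no pore of their own and change the gating or traffic of the channels they join. The members comprised 32 voltage-gated, 11 inward rectifier, 10 tandem-pore, 5 calcium-activated, 3 sodium- or pH-activated and 4 HCN genes, 12 auxiliary subunits and 2 noncoding RNAs named after channel genes.

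A single member was called in the comparison of SCI with sham, the auxiliary subunit Kcne4, which was higher. Another member, the inward rectifier Kcnj13, differed in the opposite direction but lay below the filter on low counts and so was not tested with the others. The sequences that precede the RefSeq starts of both genes are shown because the account of single members turns on these 2. Each runs 5′ to 3′ on the gene's strand over the 250 bases before the RefSeq start (GRCm38.p6), and capitals mark the letters of a searched motif.
Kcne4, plus strand, chr1:78816661-78816910: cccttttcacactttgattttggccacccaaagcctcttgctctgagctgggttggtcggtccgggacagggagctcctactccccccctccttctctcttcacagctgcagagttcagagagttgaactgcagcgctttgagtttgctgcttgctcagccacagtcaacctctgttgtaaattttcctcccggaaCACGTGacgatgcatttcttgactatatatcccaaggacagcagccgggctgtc
Kcnj13, minus strand, chr1:87394730-87394979: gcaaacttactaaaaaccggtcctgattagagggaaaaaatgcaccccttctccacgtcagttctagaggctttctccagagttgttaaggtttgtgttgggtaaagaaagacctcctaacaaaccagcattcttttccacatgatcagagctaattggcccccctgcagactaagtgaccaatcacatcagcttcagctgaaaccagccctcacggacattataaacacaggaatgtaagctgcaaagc
Both strands were searched for the AP-1 motif TGANTCA, the cyclic AMP response element TGACGTCA, the E-box CACGTG, an NF-kB site and a CArG box, which are bound by factors of the early response to injury or by general regulators. The Kcne4 window held an E-box that begins 54 bases before the RefSeq start, and 6.02% of the 32851 windows of this length in the RefSeq table held one. No searched motif was in the Kcnj13 window. An AP-1 motif was in 6.75% of all windows, a response element in 1.55%, an NF-kB site in 3.90% and a CArG box in 1.47%. GENCODE places the start of Kcne4 153 bases upstream of the RefSeq start, inside the window shown. The E-box lies downstream of that GENCODE start, within the gene as GENCODE annotates it. A match is a string of letters, and binding was not measured here.

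Of the 79 members, 59 passed the filter on low counts and were tested with all 13560 genes. The filter asks for a minimum level in as many libraries as 1 group holds. Kcne4 reached it only in the SCI libraries, where it was high, so its entry into the test depended on the difference itself. Kcne4 was called higher and no member was called lower at a Benjamini-Hochberg adjusted p under 0.05 (edgeR quasi-likelihood test), so 1.69% of tested members were called, against 0.929% of all genes tested in either direction. Over all genes, 0.885% were called higher and 0.0442% lower. At an unadjusted p under 0.05, Kcne4 was again the sole member, with 0 members lower, where 7.38% of all genes were under that p in either direction and 3.11% were lower. DESeq2 and limma voom also called Kcne4 alone, with 0 members lower at an unadjusted p under 0.05 in either tool, while limma voom placed 4 members higher at that p. The remaining 58 tested members had log2 fold changes between -1.14 (Kcnn3) and 0.62 (Kcnip2), and none was called.

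**Figure D1:**
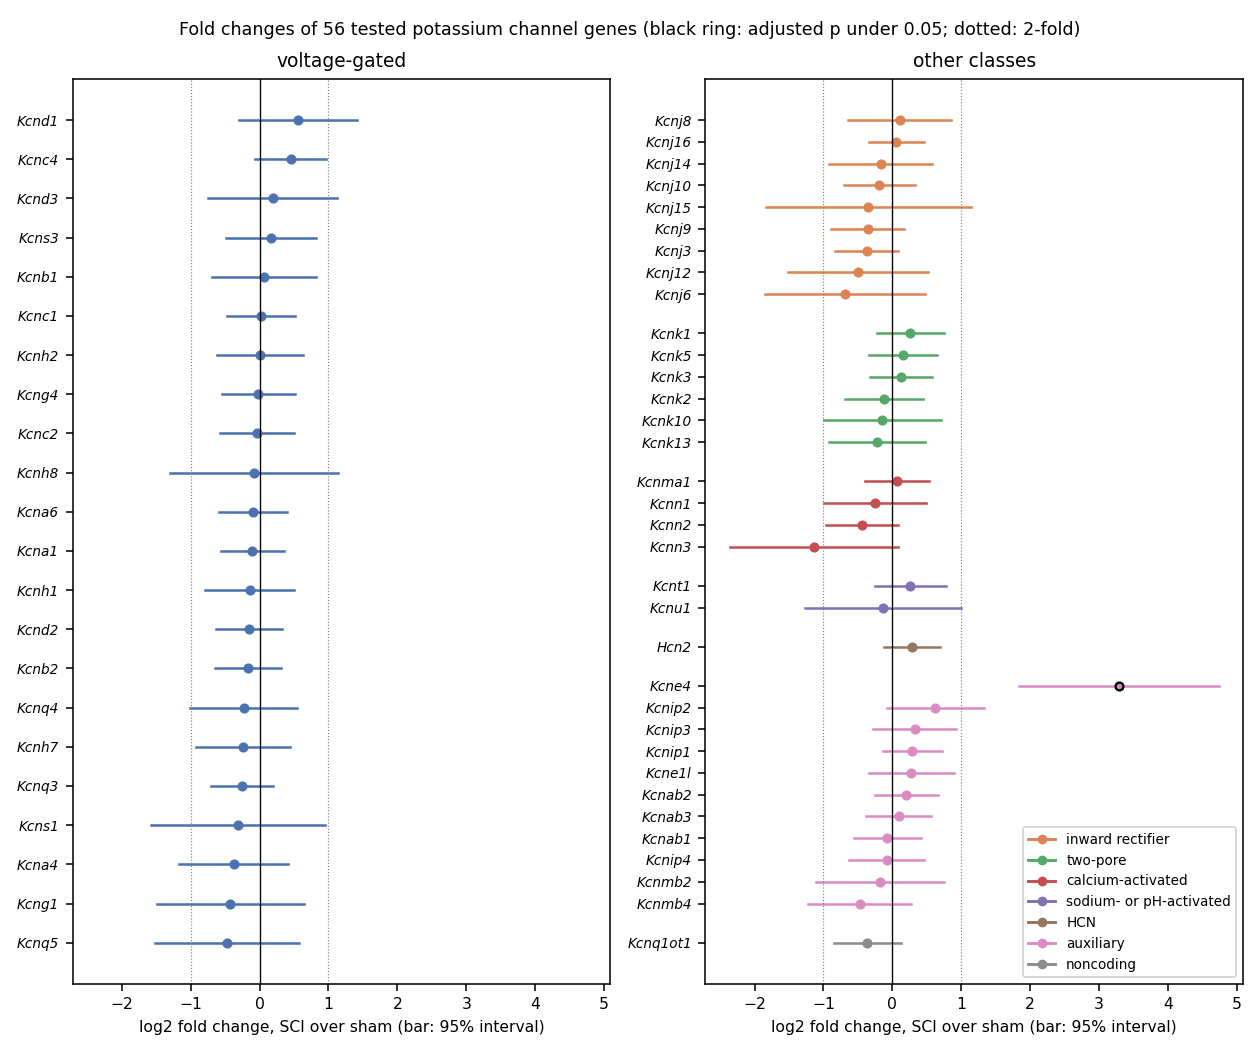
Log2 fold change of SCI over sham (points) with its 95% interval (bars) for 56 of the 59 tested members, voltage-gated genes at left and the other classes at right, coloured by class. Dotted lines mark 2-fold, a black ring marks the called gene Kcne4, and most intervals stay between the dotted lines.

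The precision of these comparisons differed by abundance. The 95% interval of the log2 fold change lay within 2-fold in both directions for 42 of the 59 tested members, or 71.2%, against 71% of all genes tested. Those members had a median level of 18.5 CPM. For the 17 others, with a median level of 2.49 CPM, Kcne4 included, the interval reached 2-fold or more. Apart from Kcne4, whose interval lay wholly beyond 2-fold, a 2-fold difference in at least 1 direction was within the interval of these members at this depth. Groups did not overlap in 2 higher members, Kcne4 among them, and 2 lower members (Kcnn2 and Kcnn3), 3.39% of tested members in each direction, against 7.73% of all genes tested higher and 5.94% lower. Of these members, Kcne4 and Kcnn3 reached the filter on low counts only in the group where they were high.

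Kcne4 encodes a single-pass membrane protein that joins voltage-gated channels and lowers the current of some of them, Kv1.1 included. It is protein-coding and lies at chromosome 1, 78816758 to 78820028 on the plus strand (GRCm38, GENCODE M21; ENSMUSG00000047330). Its reads numbered 32, 21 and 15 counts in SCI cords 1 to 3, against 6, 1 and 0 counts in sham cords 1 to 3. After scaling these were 3.87, 3.03 and 2.97 CPM in SCI cords 1 to 3, against 0.788, 0.0963 and 0 CPM in sham cords 1 to 3. Every SCI cord was above every sham cord, and sham 1 held 6 of the 7 sham reads. Kcne4 averaged 3.29 ± 0.501 CPM in SCI cords and 0.295 ± 0.430 CPM in sham cords (SD, n = 3 mice each), a log2 fold change of 3.29 ± 0.68 (SE; 95% interval 1.83 to 4.74; adjusted p = 0.0280). It ranked 22 by fold change among the 120 genes called higher.

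With the filter on low counts, that call depended on single libraries. Without SCI 1, SCI 2, SCI 3 or sham 2, Kcne4 was not called (adjusted p = 0.151, 0.108, 0.0895 and 0.0968), although its log2 fold change stayed between 2.66 and 3.34. Without sham 1 the log2 fold change was 5.23 (adjusted p = 0.0143), and without sham 3 it was 2.99 (adjusted p = 0.0410). In edgeR fits with no filter, the setting used for Kcnj13 below, Kcne4 stayed called when any 1 library was left out (adjusted p = 6.8e-05 to 0.0145). The spread of each gene was set almost wholly by the trend over all genes in fits of that kind. Sham 2, with the most hepatocyte transcripts, held 1 Kcne4 read. Erythroid markers moved with the groups, with 5 of 5 tested markers called higher and a summed level of 1584 to 4282 CPM in SCI cords and 611 to 841 CPM in sham cords, as did the summed level of 10 neutrophil markers, at 119 to 152 CPM in SCI cords and 49.1 to 117 CPM in sham cords with 0 of 7 tested markers called. Markers of pericytes and smooth muscle, at 635 to 862 CPM in SCI cords and 501 to 914 CPM in sham cords, and of endothelial cells, at 482 to 532 CPM in SCI cords and 391 to 604 CPM in sham cords, overlapped between the groups, with 0 of 9 and 0 of 10 tested markers called. The part of any of these cells in the Kcne4 result was not tested.

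**Figure D2:**
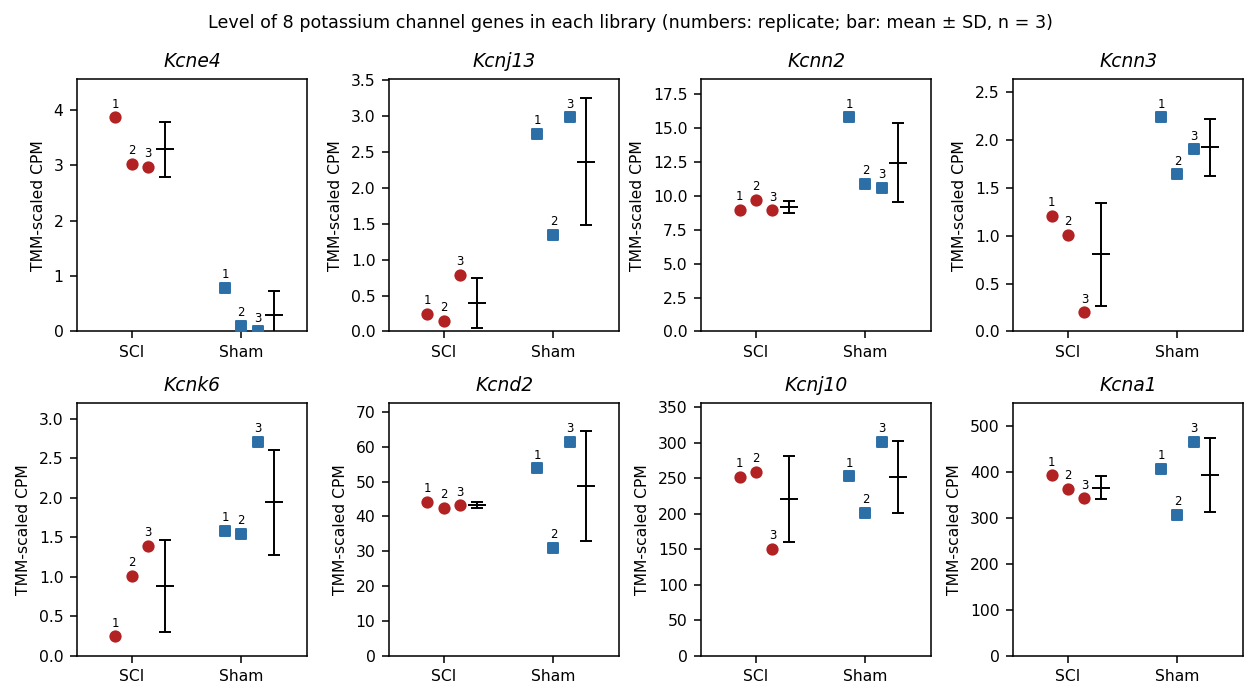
Level of 8 members in TMM-scaled CPM on linear axes that start at 0. Points are single libraries numbered by replicate, SCI (circles) left of sham (squares), and bars are the mean ± SD of 3 mice (cut at 0 for Kcne4 in sham); Kcne4 is higher and Kcnj13, Kcnn2, Kcnn3 and Kcnk6 lower in every SCI cord than in any sham cord, while Kcnd2, Kcnj10 and Kcna1 overlap.

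The other KCNE member, Kcne1l (also named Kcne5), averaged 8.24 ± 2.62 CPM in SCI cords and 6.85 ± 0.267 CPM in sham cords (log2 fold change 0.27 ± 0.29, adjusted p = 0.921). The auxiliary class had 12 members, 11 of them tested, with 7 positive and 4 negative log2 fold changes and a median of 0.20, against -0.0025 over all genes tested. Without sham 2 the median was -0.0063, with 5 positive and 6 negative values. Its most abundant member was Kcnab2, the Kv beta 2 subunit that accompanies Kv1 channels to the axon, at 168, 179 and 142 CPM in SCI cords 1 to 3, against 166, 100.4 and 158 CPM in sham cords 1 to 3. The groups overlapped, and sham 2 was the lowest library (log2 fold change 0.20 ± 0.22, adjusted p = 0.922). KChIP proteins bind calcium and raise the surface level of Kv4 channels. Kcnip2 had 6.41, 8.66 and 7.53 CPM in SCI cords 1 to 3, against 3.55, 4.24 and 7.59 CPM in sham cords 1 to 3. Sham 3 lay within the range of the SCI cords, and the log2 fold change of 0.62 ± 0.33 did not pass the test (adjusted p = 0.733). Kcnip1, the most abundant KChIP gene, averaged 32 ± 2.57 CPM in SCI cords and 26.4 ± 5.39 CPM in sham cords (SD, n = 3 mice each; log2 fold change 0.29 ± 0.20). Kcnmb4, the neuronal beta subunit of the BK channel, averaged 3.91 ± 1.47 CPM in SCI cords and 5.67 ± 1.04 CPM in sham cords, with a log2 fold change of -0.47 ± 0.35 (adjusted p = 0.868).

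None of the tested inward rectifiers passed the test. Of 11 members 9 were tested, 7 with a negative and 2 with a positive log2 fold change, where 50.3% of all genes tested were negative. Of these members 0 were called by edgeR, DESeq2 or limma voom, the median was -0.35, and the class sum overlapped between the groups, at 338, 349 and 233 CPM in SCI cords 1 to 3, against 347, 289.8 and 419 CPM in sham cords 1 to 3. Kcnj10 encodes Kir4.1, the glial channel that clears potassium from around neurons, and was the most abundant, at 253, 259.6 and 150.5 CPM in SCI cords 1 to 3, against 253, 201 and 302 CPM in sham cords 1 to 3. SCI 3 was the lowest of all libraries and the other SCI cords lay among the sham cords (log2 fold change -0.19 ± 0.24, 95% interval -0.70 to 0.32). It lies at chromosome 1, 172341210 to 172374085 on the plus strand. Kcnj16, whose product Kir5.1 joins Kir4.1, had 38.6, 37.1 and 36.5 CPM in SCI cords 1 to 3, against 37.2, 29.4 and 42.0 CPM in sham cords 1 to 3. Kcnj16 was even over the SCI cords, SCI 3 included (log2 fold change 0.059 ± 0.19).

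Astrocytes and oligodendrocytes both use Kir4.1. Summed astrocyte markers were at 3454 to 3681 CPM in SCI cords and 2851 to 3781 CPM in sham cords, and summed oligodendrocyte markers at 5394 to 9102 CPM in SCI cords and 5922 to 8029 CPM in sham cords, lowest in SCI 3. Per unit of summed astrocyte marker level, Kcnj10 was 0.0409 to 0.0743 in SCI cords and 0.0706 to 0.0799 in sham cords. Per unit of summed oligodendrocyte marker level it was 0.0279 to 0.0330 in SCI cords and 0.0340 to 0.0376 in sham cords. The ratio to oligodendrocyte markers did not overlap between groups and the ratio to astrocyte markers did, and neither was tested.

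The G protein-gated inward rectifiers carry the inhibitory current of transmitter receptors. Kcnj3 (GIRK1) had 25.6, 29.0 and 18.8 CPM in SCI cords 1 to 3, against 26.5, 31.5 and 38.5 CPM in sham cords 1 to 3; sham 1 lay inside the SCI range (log2 fold change -0.38 ± 0.21, adjusted p = 0.774). Kcnj9 (GIRK3) averaged 11.2 ± 2.02 CPM in SCI cords and 14.5 ± 3.23 CPM in sham cords (log2 fold change -0.36 ± 0.25), and Kcnj6 (GIRK2) 1.74 ± 0.613 CPM in SCI cords and 2.98 ± 2.01 CPM in sham cords (log2 fold change -0.69 ± 0.55). All 3 had negative values and none was called (adjusted p = 0.850 for Kcnj9 and 0.877 for Kcnj6). Kcnj8, which encodes Kir6.1 of vascular ATP-sensitive channels, averaged 3.64 ± 0.335 CPM in SCI cords and 3.34 ± 0.348 CPM in sham cords, and its pore-forming relative Kcnj11 had no read in any library, where the limit that a count of 0 allows was 0.260 to 0.880 unscaled CPM per library.

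Kcnj13 encodes Kir7.1, known from epithelia such as the choroid plexus and the retinal pigment epithelium. It lies at chromosome 1, 87386363 to 87394729 on the minus strand (GRCm38, GENCODE M21; ENSMUSG00000079436). It was singled out after its values were seen. Its reads numbered 2, 1 and 4 counts in SCI cords 1 to 3, against 21, 14 and 11 counts in sham cords 1 to 3, which scaled to 0.242, 0.144 and 0.793 CPM in SCI cords 1 to 3, against 2.76, 1.35 and 2.98 CPM in sham cords 1 to 3. Every SCI cord was below every sham cord, and sham 2 was the lowest of the sham cords. With no filter on low counts its log2 fold change was -2.62 ± 0.75 (SE; adjusted p = 0.0449), in a fit that called 1.04% of 21524 genes, 0.846% higher and 0.195% lower. With the stricter filter, which Kcnj13 passed, it was not called (adjusted p = 0.148). Without a filter, it was not called when SCI 1, SCI 2, sham 1 or sham 3 was left out (adjusted p = 0.315, 0.317, 0.353 and 0.166), and it was when SCI 3 or sham 2 was (adjusted p = 0.0202 and 0.0211).

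Kcnj13 overlaps Gigyf2 on the opposite strand, and the strand setting of the counting is not given in the sources used here. Gigyf2 averaged 57.5 ± 9.34 CPM in SCI cords and 61.5 ± 9.39 CPM in sham cords, a log2 fold change of -0.092 ± 0.19 (adjusted p = 0.971). Ependymal markers summed to 449 to 683 CPM in SCI cords and 363 to 694 CPM in sham cords, and meningeal fibroblast markers to 497 to 551 CPM in SCI cords and 363 to 719.9 CPM in sham cords. Both overlapped between the groups, with 0 of 5 and 0 of 8 tested markers called, and their part in the Kcnj13 values was not tested.

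Calcium-activated channels comprise the large-conductance BK channel and the small and intermediate conductance family. Of 5 members 4 were tested, 3 with a negative log2 fold change, and 0 were called by edgeR, DESeq2 or limma voom (median -0.34). Kcnma1, the BK pore at chromosome 14, 23289431 to 24014491, was the most abundant at 49.1, 47.4 and 54.7 CPM in SCI cords 1 to 3, against 63.2, 33.7 and 47.4 CPM in sham cords 1 to 3, and the SCI cords lay within the range of the sham cords (log2 fold change 0.068 ± 0.22). Kcnn2 (SK2), which shapes the afterhyperpolarization of neurons, had 8.95, 9.67 and 8.92 CPM in SCI cords 1 to 3, against 15.8, 10.9 and 10.6 CPM in sham cords 1 to 3. Every SCI cord was below every sham cord, but the log2 fold change of -0.44 ± 0.25 did not pass the test (95% interval -0.97 to 0.081; adjusted p = 0.754). Kcnn3 (SK3) likewise did not overlap, at 1.21, 1.01 and 0.198 CPM in SCI cords 1 to 3, against 2.23, 1.64 and 1.90 CPM in sham cords 1 to 3 (log2 fold change -1.14 ± 0.57, adjusted p = 0.717). It passed the filter on low counts only through the sham libraries, where it was high. Kcnn1 (SK1) averaged 3.43 ± 0.465 CPM in SCI cords and 3.98 ± 0.737 CPM in sham cords and overlapped (log2 fold change -0.25 ± 0.35).

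Summed over Kcnn1 to Kcnn4, the small and intermediate conductance family was at 13.4, 14.3 and 14.1 CPM in SCI cords 1 to 3, against 22.8, 16.7 and 17.1 CPM in sham cords 1 to 3. That sum did not overlap between the groups, but Kcnn2 held most of it, so it largely repeats the Kcnn2 values. Among the sums of all families, those of this family and of KCNE did not overlap and the others did. The KCNE sum holds Kcne4 and Kcne1l alone, and Kcne1l overlapped between the groups, so its separation repeats the Kcne4 values. No family sum was tested. Motor neurons are known to use SK channels. The summed level of 8 motor neuron markers was 175 to 199 CPM in SCI cords and 218 to 241 CPM in sham cords, without overlap. Of the single markers, Slc5a7 alone did not overlap between the groups, and Slc18a3 had a positive log2 fold change (0.13 ± 0.20). None of the 8 markers was called, and the part of motor neurons in the SK values was not tested.

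**Figure D3:**
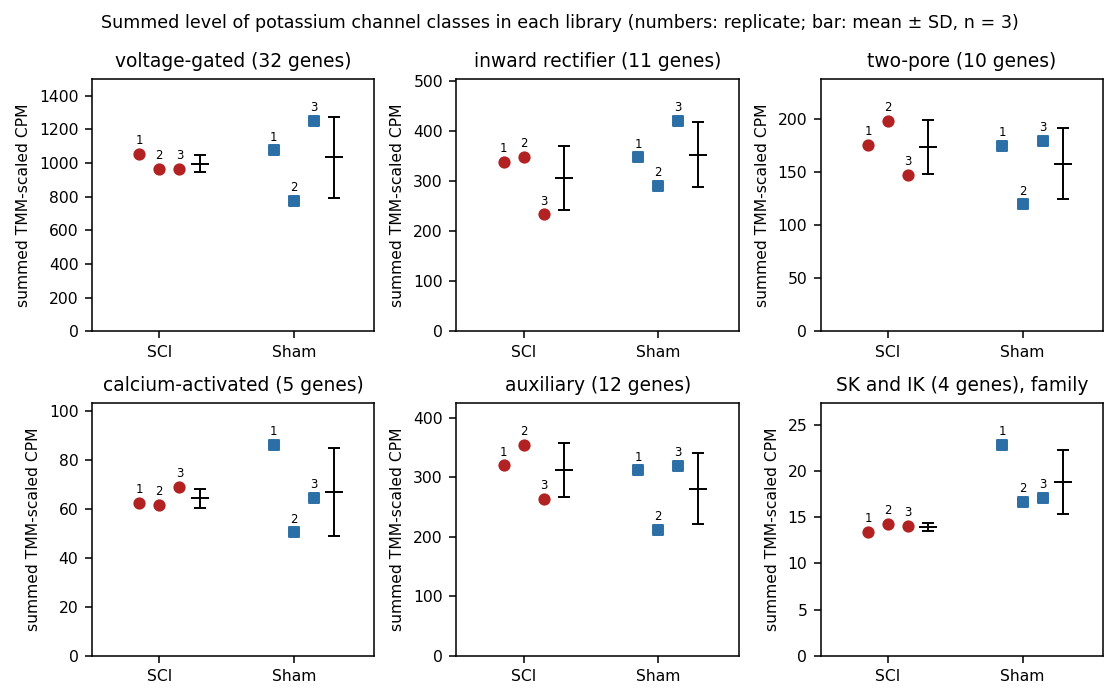
Summed TMM-scaled CPM of the members of 5 classes and of the SK and IK family, on axes that start at 0. Points are single libraries numbered by replicate, SCI (circles) left of sham (squares), bars are the mean ± SD of 3 mice, and the sums overlap between groups in all panels except SK and IK.

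Voltage-gated channels were the largest class and held 48.2% of the summed member level. Their sum was 1052, 966 and 965 CPM in SCI cords 1 to 3, against 1074, 775 and 1249 CPM in sham cords 1 to 3, so the spread over sham cords exceeded that over SCI cords and the groups overlapped. Of 32 members 24 were tested, 8 with a positive and 16 with a negative log2 fold change, with a median of -0.085 and 0 called by edgeR, DESeq2 or limma voom. Relative to the summed neuron markers, the class stood at 0.137 to 0.147 in SCI cords and 0.128 to 0.142 in sham cords.

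Kcna1 encodes Kv1.1, a low-threshold channel of the axon beside the node of Ranvier, and was the most abundant member of all, at 392, 362 and 342 CPM in SCI cords 1 to 3, against 406, 307 and 466 CPM in sham cords 1 to 3 (chromosome 6, 126640397 to 126646384). All 3 SCI cords lay between sham 2 and sham 1, and the log2 fold change was -0.10 ± 0.22 (95% interval -0.56 to 0.36; adjusted p = 0.972). Kcna6 (Kv1.6) averaged 39.8 ± 3.49 CPM in SCI cords and 42.9 ± 14.4 CPM in sham cords, and Kcna4 (Kv1.4) 3.20 ± 0.535 CPM in SCI cords and 4.33 ± 1.42 CPM in sham cords. Kv3 channels repolarize fast enough for high firing rates. Kcnc1 (Kv3.1) had 105, 71.9 and 103 CPM in SCI cords 1 to 3, against 89.4, 65.3 and 122 CPM in sham cords 1 to 3, with SCI inside the sham range (log2 fold change 0.020 ± 0.23, adjusted p = 0.994). Kcnc4 (Kv3.4) averaged 19.2 ± 3.79 CPM in SCI cords and 14.1 ± 3.35 CPM in sham cords and was not called (log2 fold change 0.45 ± 0.24, adjusted p = 0.745).

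Kv4 channels carry the transient A current. Kcnd2 (Kv4.2) had 44.1, 42.4 and 43.2 CPM in SCI cords 1 to 3, against 53.8, 31.0 and 61.5 CPM in sham cords 1 to 3, almost even over SCI cords and spread to either side of them in sham cords (log2 fold change -0.16 ± 0.22). Kcnd1 (Kv4.1) had 6.53, 6.21 and 5.75 CPM in SCI cords 1 to 3, against 5.38, 1.73 and 6.24 CPM in sham cords 1 to 3, and its positive log2 fold change of 0.56 ± 0.40 came with a low sham 2 (adjusted p = 0.859; 0.097 without sham 2). Kcnb2 (Kv2.2), a delayed rectifier, averaged 19.9 ± 3.54 CPM in SCI cords and 22.5 ± 4.58 CPM in sham cords. Kcng4, a modifier subunit that forms no channel alone, averaged 14.5 ± 3.80 CPM in SCI cords and 15 ± 2.95 CPM in sham cords and Kcng1 2.84 ± 2.06 CPM in SCI cords and 3.84 ± 1.92 CPM in sham cords. Among ether-a-go-go relatives, Kcnh2 (ERG1) averaged 13.4 ± 5.86 CPM in SCI cords and 13.5 ± 1.41 CPM in sham cords and Kcnh7 (ERG3) 8.70 ± 1.96 CPM in SCI cords and 10.7 ± 4.90 CPM in sham cords. None of these was called (adjusted p = 0.936, 0.995, 0.926, 0.998 and 0.940).

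Kcnq3 encodes a Kv7 subunit of the M current, a brake on repetitive firing. It had 52.3, 34.9 and 43.4 CPM in SCI cords 1 to 3, against 53.0, 40.1 and 63.7 CPM in sham cords 1 to 3, with the groups overlapping (log2 fold change -0.25 ± 0.21, adjusted p = 0.885). Without sham 2 its log2 fold change was -0.42 and was not called either (adjusted p = 0.561).

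A ratio of counts of 2 genes within 1 library does not depend on the scaling of libraries, and 8 pairs of subunits that assemble or work together were compared in this way, 5 of which are described. The pairs were chosen with results of these data known. The ratio of Kcna1 to Kcnab2 was 2.34, 2.02 and 2.42 in SCI cords 1 to 3, against 2.44, 3.05 and 2.94 in sham cords 1 to 3, lower in each SCI cord than in any sham cord, narrowly so between SCI 3 and sham 1, with a difference of -0.31 on the log2 scale (exact two-sided permutation test, p = 0.1, the smallest that 3 against 3 can give; adjusted p = 0.400 over the 8 pairs). The ratio of Kcnj10 to Kcnj16 was 6.55, 7.0 and 4.12 in SCI cords 1 to 3, against 6.81, 6.85 and 7.19 in sham cords 1 to 3, with SCI 3 apart from the other 5 libraries (exact permutation test, p = 0.3). The pairs Kcnj3 and Kcnj9, Kcnd2 and Kcnip4, and Kcnma1 and Kcnmb4 overlapped between the groups, with exact permutation p of 0.200 to 1. No pair passed the adjustment, which this design cannot pass.

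**Figure D4:**
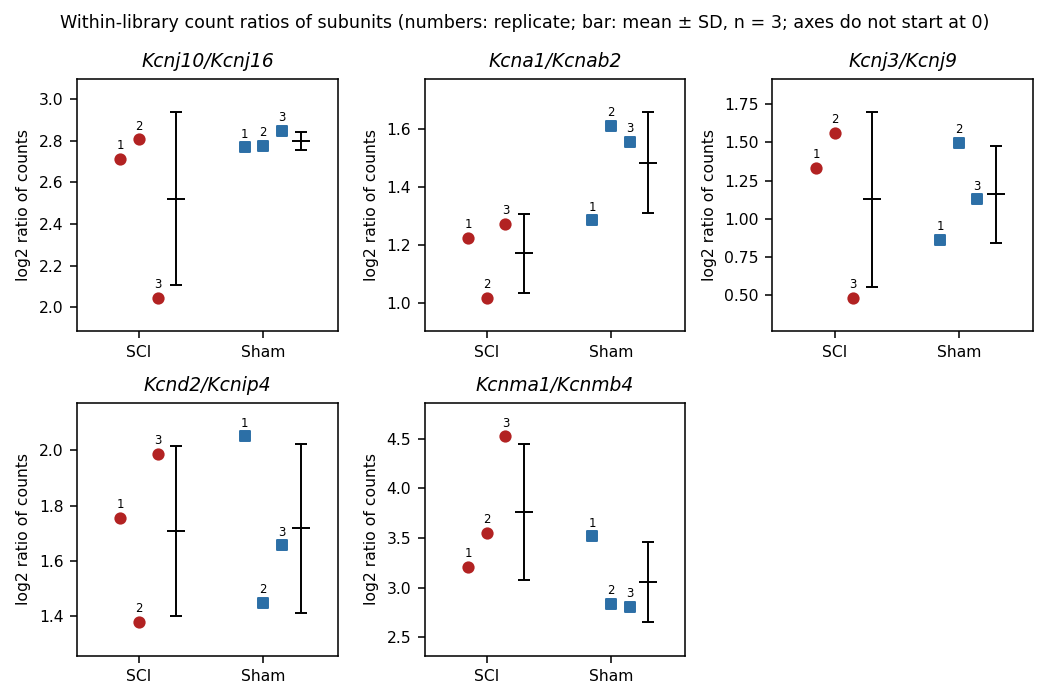
Log2 ratio of the counts of 2 subunits within each library for 5 pairs, SCI (circles) left of sham (squares), numbered by replicate, with the mean ± SD of 3 mice; axes do not start at 0. The groups are separate for Kcna1 over Kcnab2 and overlap in the other 4 pairs.

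Tandem-pore channels had 10 members, 6 of them tested, with 3 positive and 3 negative log2 fold changes and a median of -0.0011, which was 0.011 with scaling by total counts alone. All 6 intervals lay within 2-fold, and 0 were called by edgeR, DESeq2 or limma voom. Kcnk1 (TWIK-1), a leak channel of neurons and astrocytes, had 101, 118 and 74.3 CPM in SCI cords 1 to 3, against 95.2, 56.8 and 94.1 CPM in sham cords 1 to 3, with overlapping groups (log2 fold change 0.26 ± 0.23, adjusted p = 0.894). Kcnk3 (TASK-1), closed by acid, averaged 31.6 ± 5.96 CPM in SCI cords and 29.4 ± 5.42 CPM in sham cords (log2 fold change 0.12 ± 0.21). Kcnk5 (TASK-2) had 16.3, 19.6 and 23.6 CPM in SCI cords 1 to 3, against 19.4, 20.2 and 12.5 CPM in sham cords 1 to 3, with no order by group (log2 fold change 0.16 ± 0.23). Kcnk13 (THIK-1), the leak channel of resting microglia, averaged 5.79 ± 0.428 CPM in SCI cords and 6.99 ± 2.48 CPM in sham cords (log2 fold change -0.22 ± 0.33, adjusted p = 0.947). In the same libraries 1 of 12 microglia markers, P2ry12, was called lower, and the summed marker level of microglia was 379 to 473 CPM in SCI cords and 356 to 435 CPM in sham cords. Kcnk6 (TWIK-2), below the filter and singled out after its values were seen, had 2, 7 and 7 counts in SCI cords 1 to 3, against 12, 16 and 10 counts in sham cords 1 to 3. After scaling every SCI cord was below every sham cord, and without a filter its log2 fold change was -1.15 ± 0.67 (adjusted p = 0.782).

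HCN channels, which give neurons their sag current and pacemaking, had 4 members. Hcn2, at chromosome 10, 79716634 to 79736108, had 43.4, 50.0 and 44.4 CPM in SCI cords 1 to 3, against 46.5, 30.7 and 35.8 CPM in sham cords 1 to 3, with sham 1 inside the SCI range (log2 fold change 0.29 ± 0.19, adjusted p = 0.838). Hcn3 and Hcn4 lay below the filter with 51 and 17 counts in all. Kcnt1 (Slack), opened by sodium, averaged 14.2 ± 1.35 CPM in SCI cords and 12.1 ± 3.05 CPM in sham cords (log2 fold change 0.26 ± 0.24, adjusted p = 0.903). Kcnq1ot1, the long noncoding RNA that is transcribed antisense to Kcnq1 and silences neighbours on the paternal chromosome, held 6421 counts, against 53 for Kcnq1. It had 145, 115 and 160.2 CPM in SCI cords 1 to 3, against 143, 157 and 243 CPM in sham cords 1 to 3, with sham 3 the highest and overlapping groups (log2 fold change -0.36 ± 0.23, adjusted p = 0.813). It lies at chromosome 7, 143203458 to 143296549 on the minus strand within Kcnq1, so without a known strand setting reads of the pair cannot be assigned with certainty.

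Class medians depended on which sham library was left out, and were lower without sham 2. The summed level of all members was lowest in sham 2, at 1655 CPM, and highest in sham 3, at 2544 CPM. For that sum, leaving out sham 2 thus lowers the ratio of SCI to sham and leaving out sham 3 raises it. Signs were not counted in the fit without sham 3. With all libraries 23 of 59 tested members, or 39%, had a positive log2 fold change, against 49.7% of all genes tested. Without sham 2, 44 of the 58 members tested in both fits were negative, or 75.9%, against 49.8% of all genes. Over members tested in both fits, the median log2 fold change was -0.27 without sham 2, against -0.085 with all libraries, in the voltage-gated class, and it was positive, at 0.11, without sham 3. In the tandem-pore class it was -0.16 without sham 2 and -0.0011 with all libraries, in 8 inward rectifiers -0.36 and -0.27, in the calcium-activated class -0.42 and -0.34, and in the auxiliary class -0.0063 and 0.20. No member was called in that fit, in which 0.902% of 13752 genes were, 0.814% higher and 0.0873% lower. In it, Kcnn2, Kcnj9, Kcnq1ot1, Kcnd2, Kcnq3 and Kcnj13 were the 6 members lower at an unadjusted edgeR p under 0.05, of 61 tested, where 3.6% of all genes were. Kcnj13, not tested with all libraries, entered this fit only through the sham libraries, where it was high. In the same fit 12 of 15 neuron markers were negative, with a median of -0.26.

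**Figure D5:**
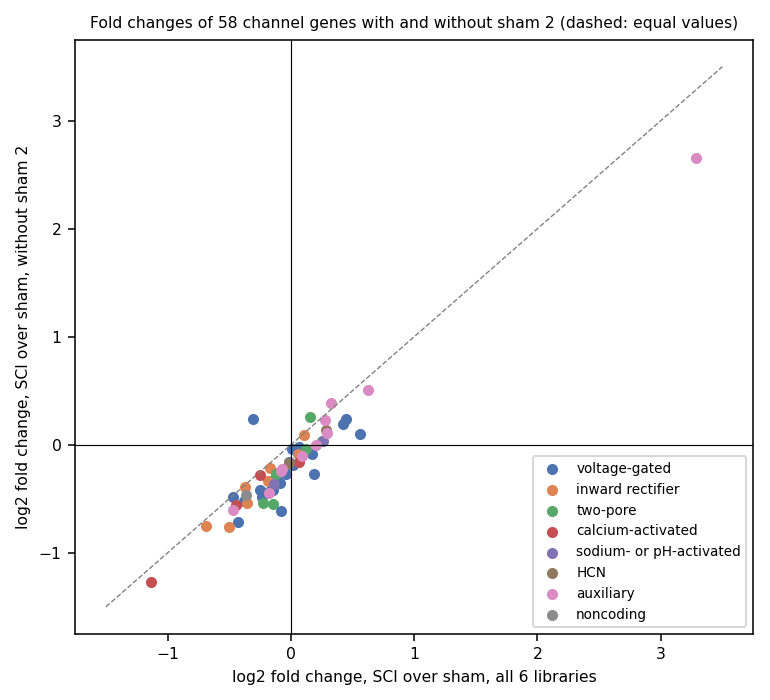
Log2 fold change of SCI over sham without sham 2 (vertical) against that with all 6 libraries (horizontal) for the 58 members tested in both, coloured by class. The dashed line marks equal values; most points lie below it, and 44 of 58 lie below 0 without sham 2. Sham 2 had the lowest summed member level of all libraries and sham 3 the highest, and the fit without sham 3 is not drawn.

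The 20 members below the filter held 11 to 70 counts each. Without a filter, Kcnj13 was the sole one of them at an unadjusted edgeR p under 0.05, and the other 19 had adjusted p of at least 0.782 with log2 fold changes from -1.16 (Kcnmb1) to 1.86 (Kcnk7). Among them were Kcnj2 (Kir2.1) with 7 counts in SCI and 9 in sham libraries and Kcnn4 (the intermediate conductance channel of blood cells) with 9 and 8. Kcna3 (Kv1.3), which activated lymphocytes and microglia use, fell under the threshold for membership with 7 counts.

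No gene was called in the lists of channel-associated proteins and of potassium pumps and cotransporters that were set beside the members. Of 23 tested channel-associated genes, 0 were higher and 0 lower by edgeR, and of 14 pumps and cotransporters, likewise 0 and 0. The channel-associated genes with the smallest p were Lrrc8a, a subunit of the volume-regulated anion channel, at 95.6 ± 7.81 CPM in SCI cords and 70.3 ± 3.85 CPM in sham cords (log2 fold change 0.44 ± 0.17, adjusted p = 0.499), and Lrrc55, an auxiliary protein of BK channels, with a log2 fold change of -0.78 ± 0.38 (adjusted p = 0.704). Those of the transport list were the potassium chloride cotransporters Slc12a7 and Slc12a4, with log2 fold changes of -0.58 ± 0.27 and 0.32 ± 0.28 (adjusted p = 0.660 and 0.893). The list medians were 0.028 and -0.056, against -0.0025 over all genes tested.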

How the data were processed

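For each library the authors deposited a table of whole-number read counts per Ensembl gene, not normalized. Per the labels, libraries were made from total RNA with the Lexogen QuantSeq Forward kit and aligned with STAR 2.7.2b to mm10 with the Ensembl annotation of GRCm38; DESeq2 1.24.0 is also listed per the submitters' processing notes. The sources used here do not give the counting tool, its strand setting or how reads with several matches were treated, and 29 members overlap another counted gene, whose reads may be split wrongly. A symbol was matched to 42462 of 43432 identifiers, and positions came from GENCODE M21, also on GRCm38.

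SCI was set against sham in edgeR 4.0.16 (R 4.3.3), with filterByExpr, TMM scaling, robust quasi-likelihood fitting and no covariate, for 13560 genes in 6 libraries. P-values were adjusted over all of these by the Benjamini-Hochberg method, with calls under 0.05. SE is the absolute log2 fold change over the square root of F, and 95% intervals use t quantiles with the fit's degrees of freedom. DESeq2 1.42.0 and limma 3.58.1 were alternatives, and the script was tested on simulated data. Within-group library pairs differed by more than sampling noise (chi-square per degree of freedom 6.97 to 38.0). The design text gives 3 mice per group. The limits for a count of 0 are 3 counts and cover counting error only. Members and lists were chosen with earlier results of these data known. Named members were those called, the most abundant and the smallest-p member of each family, the 3 most abundant and 3 smallest-p members of each main class, all HCN members, the tested noncoding RNA, and the partner genes called or with the 2 smallest p of each list; Kcnj13, Kcnk6 and others named with counts alone were chosen after their values were seen. A few members that meet this rule are not reported here.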

Additional observations from a re-analysis of the deposited data

How the results depend on the processing

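Kcne4 remained higher in every alternative run, with log2 fold changes of 2.66 to 5.23. The number of members called higher was 1 under all scalings, filters and tools and 0 to 1 when 1 library was left out. The number called lower was 1 without a filter (Kcnj13) and 0 otherwise. Without a filter the spread of each gene was set almost wholly by the trend over all genes. Kcnj13 passed the filters of some other fits, only through the sham libraries, where it was high. It was not called there, with log2 fold changes of -3.43 to -2.24 when 1 library was left out and -2.62 with the stricter filter.

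Same-numbered SCI and sham libraries did not deviate together (correlations of -0.172 to -0.0654 across genes), so the numbers were not taken as pairs. With the replicate number as a block, 0 members were called higher (Kcne4 at 3.42, adjusted p = 0.0998), and over all genes 81 were higher and 1 lower.

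Over all genes, the counts of 120 higher and 6 lower were 182 and 42 without a filter, 199 and 22 with the hepatocyte marker level as a covariate, and 141 and 11 with DESeq2. They ranged from 62 to 132 higher and 1 to 14 lower when 1 library was left out. With Trf and Ttr left out of the hepatocyte list, an alternative added once the data had been seen, the counts were 152 and 15. Class medians of the log2 fold change over the members tested in each fit ranged, with 1 library left out, from -0.27 to 0.053 in the tandem-pore and from -0.44 to -0.12 in the calcium-activated class.

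Among 37 members named by the rule, 16 that were never called changed sign in 41 single values, none larger than 0.236 in size. Those that moved past their own standard error in doing so were, with their range when 1 library was left out, Kcnma1 (-0.16 to 0.31; negative without sham 2), Kcnh7 (-0.49 to 0.14; positive without sham 3), Kcng1 (-1.18 to 0.079; positive without sham 1) and Kcne1l (-0.024 to 0.43; negative without SCI 2), and the cause was not tested. Depth limited members under about 1 CPM, whose counts per library were near the floor of 3.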

Other observations

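Kcna2, which encodes the Kv1.2 subunit that is known to join Kv1.1 in axons, held 24 counts in all 6 libraries, 12 in SCI and 12 in sham, while Kcna1 held 15469. No other gene counted in the tables overlaps Kcna2 in the annotation. A 3′ end library reports a gene only where its annotated end covers the end in use, and whether that holds for Kcna2 was not tested.

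Kcnj15 (Kir4.2) and Kcnk5 were highest in sham 2 and lowest in sham 3 among sham libraries, the order of the hepatocyte markers. Kcnj15 had 10, 13 and 8 counts in SCI cords 1 to 3, against 8, 42 and 0 counts in sham cords 1 to 3. Kcnk5 is given above. The CPM of other members, Kcns1, Kcnh5, Kcnt2, Kcnmb1 and Kcnmb4os2 among them, had the same order over the sham libraries. The order thus does not single out Kcnj15 and Kcnk5. Its share over all members or all genes was not computed, and the source of none of these genes was tested.

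The 5 most abundant members, with Kcna1, Kcnj10, Kcnq1ot1 and Kcnab2 among them, held 54.1% of the summed member level, while 13 of the 79 members averaged under 1 CPM.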
